A study of Rattus norvegicus with 12 samples.

Results

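The response of PC12 cells to 60 min of PACAP38 was read on the 2 arrays whose labels give this time, of 12 arrays in all. PC12 is a line from a rat adrenal pheochromocytoma, a tumour of chromaffin cells, and pituitary adenylate cyclase-activating polypeptide (PACAP) is a neuropeptide under which these cells grow neurites. The cells, kept in serum on dishes coated with type IV collagen, received PACAP38 at 1e-07 M, and the control cells were those labelled as control for the same time. RNA of 6 samples was pooled for each of the 2 conditions. Both pools were hybridized together on each array, with PACAP38 in Cy5 on one (the Cy5 array) and in Cy3 on the other (the Cy3 array). The 2 arrays therefore hold the same pair of pools and count as 1 replicate: both arrays' folds are printed where an error would stand, and PACAP38 and control could not be tested against each other. A line is 1 lineage of cells, and no second clone or further pair of pools was measured at 60 min. The labels do not say whether the 6 pooled samples were separate cultures.

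PACAP binds the receptor PAC1, which couples to Gs and Gq proteins and so raises cyclic AMP and calcium and activates the ERK kinases. Within the first hour such signals are known to switch on immediate early genes, whose promoters need no new protein synthesis. Many of these genes encode transcription factors, and others encode phosphatases, inhibitors and RNA-decay factors that shut the same signals down. Their messenger RNAs and those of many zinc finger repressors are short-lived.

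Values are processed intensities, in arbitrary units, after the background subtraction and dye normalization of the scanner software. A fold is PACAP38 over control, as the geometric mean of both arrays unless 1 array is named. To be counted as higher or lower, a probe had to reach a fold of 2 or of 0.5 in the same direction on both arrays, each time with a spot p-value under 0.01. The spot p-value is the scanner software's value for the log ratio of 1 spot, from its error models, and is no test between samples. Where neither array read 1 of the RNAs well above background, only a lower bound ("at least") is given. A gene with several probes takes the value of its brightest one, by the geometric mean of both RNAs on both arrays, so that a probe with a very dim control can rank lower.

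At 60 min 357 probes were higher (0.871% of 41006) and 154 lower (0.376%), so that 69.9% of the changed probes were higher. The higher probes stand for 297 names, of which 194 are gene symbols, and the lower probes for 146 names, of which 87 are gene symbols. Among the 309 higher probes with both RNAs well above background the median fold was 3.54 and the largest 108, and 35 of them lay at 10-fold or more. The 139 lower probes measured in both RNAs had a median of 0.371 and a smallest value of 0.115, and 14 lay at 0.25 of the control or less. In pooled RNA a change in the number of cells that hold a transcript and a change in RNA per cell cannot be told apart.

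The median difference between the log2 folds of both arrays was 0.19 over the 19734 probes measured in both RNAs. It was 0.23 over the 511 changed probes, which were chosen for passing on both arrays. The fold was larger on the Cy5 array for 244 of the 357 higher probes. A further 276 probes were past the limits one way on the Cy5 array and the other way on the Cy3 array, and were not counted. The labels state the dye of each pool. Over all 41006 probes the turned log2 folds of both arrays correlated at r = -0.35, and over the 19734 measured probes at r = 0.10, as a description across probes that share dye effects. The third slide carried the 60 and the 120 min arrays, with PACAP38 and control together on each array.

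**Figure D1:**
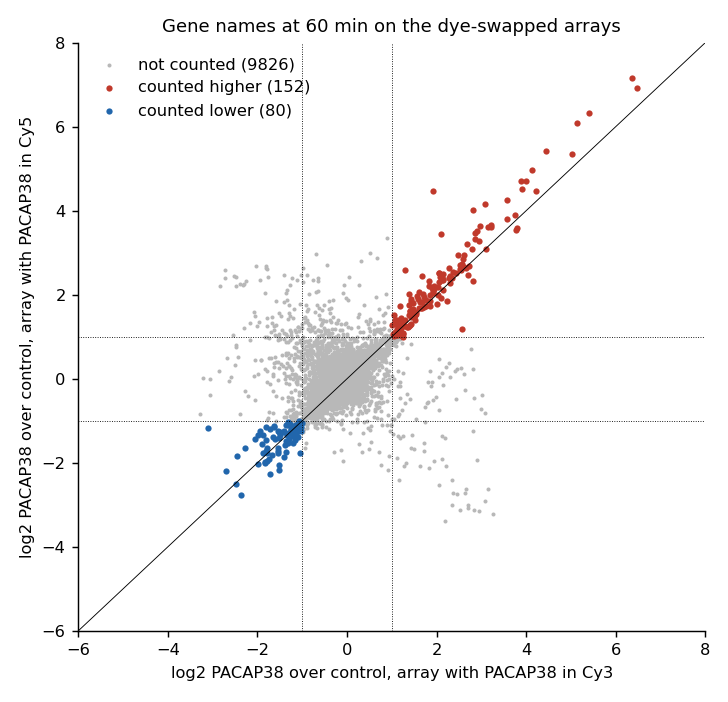
Log2 PACAP38 over control of gene names measured in both RNAs at 60 min, with the Cy3 array on the x axis and the Cy5 array on the y axis. Dotted lines mark 2-fold and the solid line equal folds; the 152 names counted higher and 80 counted lower lie in the upper right and lower left, while the grey points in the other corners moved with the dye.

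The labelled line was checked against markers of chromaffin and pheochromocytoma cells. All 13 markers that the array carries of 14 were well above background, among them Th (tyrosine hydroxylase, the first step of catecholamine synthesis), which read 80948 with PACAP38 and 63272 with control on the Cy5 array and 69043 and 64176 on the Cy3 array. Of other cell types, 0 of 5 endothelial markers, 1 of 6 leukocyte markers (Cd68) and 5 of 7 fibroblast markers were above that level. None of these marker genes was counted.

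Transcription factors of the immediate early class were prominent among the largest folds, beside Rgs2 and Btg2, described below. All 3 Nr4a orphan receptors, nuclear receptors that act without a ligand, were higher, with a median log2 fold of 4.92, against -0.04 over the 10058 gene names measured in both RNAs. Of the 10640 gene names above background in at least 1 RNA, 1.64% were counted higher. Nr4a3 read 4964 with PACAP38 and 34.9 with control on the Cy5 array and 5501 and 67.1 on the Cy3 array, 108-fold, its control being well above background on 1 array. Both other probes had dim controls and gave bounds of at least 262-fold and 58.1-fold. Nr4a2 rose 30.4-fold, from 569 to 24229 on the Cy5 array and from 964 to 20876 on the Cy3 array. Nr4a1 read 78129 and 45156 with PACAP38 against 4355 and 5329 and was 12.3-fold higher (17.9 and 8.47). In all 3 genes both PACAP38 readings lay above both control readings.

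Of the Egr zinc finger factors and their Nab corepressors, 4 of 6 were higher, and neither Nab gene was counted. Egr1, a factor that growth factors and depolarization induce in neurons, read 19971 against 295 on the Cy5 array and 17360 against 497 on the Cy3 array, 48.6-fold. Egr4 was 36.5-fold higher (40.7 and 32.7 on the Cy5 and Cy3 arrays), Egr3 at least 42.7-fold and Egr2 at least 2.18-fold. The controls of Egr3 and Egr2 were well above background on neither array.

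The AP-1 subunits, leucine zipper proteins that pair as Fos with Jun, gave 8 higher genes of the 12 above background and none lower, with a median log2 fold of 2.36. Fos read 7001 and 5621 with PACAP38 and 268 and 353 with control, 20.4-fold (26.1 and 15.9). Junb was 20.3-fold higher (22 and 18.7), Atf3 19.6-fold, Maff 10.7-fold and Fosl1 9.0-fold (11.1 and 7.29). Jun was higher by 4.02-fold, Fosl2 by 6.56-fold and Mafk, a small Maf protein, by 2.77-fold. The control of Maff was well above background on 1 array. Counted folds within this family thus ran from 2.77 to 20.4.

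Klf4, a Krueppel-like factor, read 21456 and 23581 with PACAP38 and 176 and 264 with control and was 104-fold higher (122 and 89.3). A probe described only as similar to Klf4 (XM_213050) read 25335 and 24582 against 666 and 1003, 30.5-fold. Klf4 was the only one of 9 measured Krueppel-like factors counted higher. Klf10 and Klf11, which are induced by TGF-beta and repress growth, moved the other way: Klf10 read 1256 and 1430 against 5042 and 5070 (0.265 of control), and Klf11 47.0 and 51.3 against 177 and 172 (0.281). Both Klf10 probes were lower, but 1 of 2 Klf11 probes. Within this family the direction of change was thus not shared.

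Of the CREB and C/EBP factors 2 of 15 were higher. Crem encodes activators and, from an internal promoter, the repressor ICER, which cyclic AMP induces. Its 3 probes were all higher, at 9.88-fold on the brightest (7818 and 8547 against 625 and 1095). The probe NM_001271248 read 1116 and 1036 against 51.9 and 50.7, 21.5-fold and 20.4-fold on the Cy5 and Cy3 arrays. Cebpb was 4.88-fold higher. Of the clock genes 3 of 12 were higher: Nfil3 at 4.99-fold, Per1 at 4.05-fold and Cry2 at 3.32-fold.

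**Figure D2:**
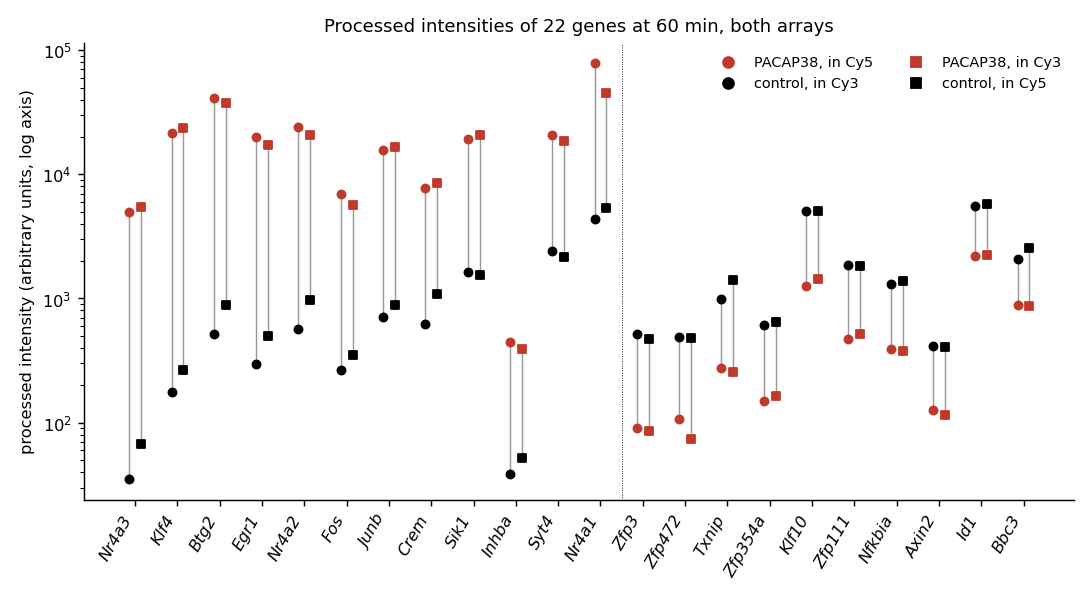
Processed intensities (log axis) of 12 genes counted higher, left of the dotted line, and 10 counted lower. Red points are PACAP38 and black points control, circles the Cy5 array and squares the Cy3 array. Grey lines join the RNAs of 1 array. That both arrays lie in the same order for every gene shown is required by the counting rule.

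The cyclic AMP response element (CRE), the palindrome TGACGTCA to which CREB binds, was looked up in the RefSeq promoters (GRCr8), windows of 250 bases before to 50 after a start. A window was found for 138 of the 174 gene names counted higher by their brightest probe and for 63 of the 81 counted lower. The full site stood in 22 of the 138 (15.9%), in 1 of the 63 (1.59%), in 290 of 8770 genes above background (3.31%) and in 549 of all 27457 genes with a window (2.0%). It was in the windows of Btg2, Arl5b, Dusp1, Plk2, Maff, Crem, Vps37b, Ier2, Ppp1r15a, Skil, Ell2, Rcan1, Ccnl1 and Vgf, among others. The shorter core TGACG or its complement CGTCA, which the full site contains, stood in 56.5% of the higher, 15.9% of the lower, 34.2% of the above-background and 23.0% of all genes. Median GC content of the windows was 62.0, 57.7 and 61.0% in the higher, lower and above-background genes, and its part in these shares was not tested. The AP-1 site (TGACTCA or TGAGTCA) stood in 9.42% of the higher, 3.17% of the lower, 3.55% of the above-background and 5.04% of all genes. The EGR site (GCGTGGGCG on either strand) was in 3 and the CArG box, where SRF binds, in 4 of the 138 higher genes, against 1.12 and 1.29% of the above-background genes and 0.605 and 1.77% of all. A match of letters is a description and no measured binding, and these windows hold no site further off.

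The 250 bases before the start are shown for the 5 genes with the largest measured folds whose window holds the full CRE, in capitals, to show where the motif lies. Crem has 2 such windows. Positions are on GRCr8 and each run is in the direction of transcription.
Btg2, chr13:48087691-48087940, minus strand: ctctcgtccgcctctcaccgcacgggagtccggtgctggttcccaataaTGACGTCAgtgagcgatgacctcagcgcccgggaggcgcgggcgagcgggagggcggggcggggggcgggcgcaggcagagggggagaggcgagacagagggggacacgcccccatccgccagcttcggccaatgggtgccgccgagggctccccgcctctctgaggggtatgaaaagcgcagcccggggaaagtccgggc
Dusp1, chr10:17184603-17184852, plus strand: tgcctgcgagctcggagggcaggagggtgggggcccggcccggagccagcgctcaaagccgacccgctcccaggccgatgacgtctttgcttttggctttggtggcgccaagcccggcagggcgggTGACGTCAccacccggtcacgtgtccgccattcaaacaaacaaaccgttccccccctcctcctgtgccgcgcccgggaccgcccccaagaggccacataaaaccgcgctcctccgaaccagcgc
Plk2, chr2:43702286-43702535, plus strand: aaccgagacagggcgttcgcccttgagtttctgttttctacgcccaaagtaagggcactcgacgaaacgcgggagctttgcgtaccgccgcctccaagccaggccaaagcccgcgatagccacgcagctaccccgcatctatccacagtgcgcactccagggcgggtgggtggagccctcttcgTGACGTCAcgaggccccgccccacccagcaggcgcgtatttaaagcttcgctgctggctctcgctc
Maff, chr7:112792537-112792786, plus strand: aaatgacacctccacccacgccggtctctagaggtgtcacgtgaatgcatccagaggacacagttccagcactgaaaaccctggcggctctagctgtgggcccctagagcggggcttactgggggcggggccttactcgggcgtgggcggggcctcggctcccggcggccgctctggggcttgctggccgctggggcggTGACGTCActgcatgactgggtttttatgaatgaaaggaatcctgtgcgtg
Crem, chr17:58984547-58984796, plus strand: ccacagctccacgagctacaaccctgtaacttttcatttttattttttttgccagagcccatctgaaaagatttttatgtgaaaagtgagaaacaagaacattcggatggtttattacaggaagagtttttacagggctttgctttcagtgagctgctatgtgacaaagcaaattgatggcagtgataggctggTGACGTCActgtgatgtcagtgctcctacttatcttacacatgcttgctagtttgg
Crem, chr17:58985240-58985489, plus strand: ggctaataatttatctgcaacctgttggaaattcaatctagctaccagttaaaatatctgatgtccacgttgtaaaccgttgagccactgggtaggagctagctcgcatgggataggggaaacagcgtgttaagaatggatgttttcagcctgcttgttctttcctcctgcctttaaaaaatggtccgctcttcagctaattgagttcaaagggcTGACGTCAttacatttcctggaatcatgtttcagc
In these windows the CRE began 201 bases before the start in Btg2, 124 in Dusp1, 66 in Plk2, 51 in Maff, and 56 and 35 in the Crem windows.

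Some genes for factors that end signals were among the higher ones. Of 9 MAP kinase phosphatases, which remove phosphate from ERK, p38 or JNK, 3 were higher: Dusp1 (3334 and 2860 against 145 and 191, 18.6-fold), Dusp5 (5.48-fold) and Dusp2 (2.43-fold). Rgs2, which speeds GTP hydrolysis on G alpha proteins, read 1803 and 1851 with PACAP38 and was at least 88.9-fold higher, as its control was well above background on neither array. It was the 1 gene counted of 10 regulators of G protein signalling. Of 7 Sprouty, Spred and related inhibitors only Errfi1, an inhibitor of the EGF receptor, was higher, at 5.98-fold. The PACAP receptor and cyclase genes above background (10) and the protein kinase A genes (8) had 0 counted members: Adcyap1r1, the PAC1 receptor, lay at 0.978 (0.869 and 1.1), Gnas at 1.08 and Prkar1a at 1.22. No phosphodiesterase gene was counted by its brightest probe. Pde4d, which degrades cyclic AMP, lay at 1.79 (2.30 and 1.40), and 1 of its 5 probes was counted higher. Over all gene names 1.64% were counted higher and 0.761% lower, so lists as short as these would hold few or none. Nothing is therefore read from their lack of counted members.

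The inducible kinases and Ras-like GTPases had 7 higher members of 18, namely Plk2 (13.0-fold), Sik1 (12.6-fold), Trib1 (10.4-fold), Rasd1 (5.17-fold), Rhob (3.39-fold), Pim3 (3.36-fold) and Plk3 (2.84-fold). Sik1, which holds the CREB coactivators in the cytoplasm, read 19085 and 20918 with PACAP38 against 1627 and 1534. Factors of mRNA decay and growth arrest had 7 of 13 higher. Btg2, which recruits deadenylase to messenger RNA and slows division, went from 517 to 41301 on the Cy5 array and from 887 to 37796 on the Cy3 array, 58.4-fold. Gadd45b (5.95-fold), Pnrc1 (4.15-fold), Btg1 (3.61-fold), Tob1 (3.17-fold), Zfp36l2 (2.58-fold) and Gadd45g (2.40-fold) followed.

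Of the immediate early response genes 4 of 8 were higher: Ier2 at 7.68-fold, Arc (a synaptic protein that trims AMPA receptors) at 4.71-fold, Vgf at 2.71-fold and Ier3 at 2.24-fold. A mixed list drawn up for the delayed response, of transcriptional coregulators and other genes such as the kinase Dyrk3 and the nucleoporin Ranbp2, had 8 of 20 higher and 1 lower. Csrnp1 rose 15.1-fold, Vps37b (an ESCRT subunit) 8.48-fold, Ifrd1 6.24-fold, Dyrk3 5.90-fold and Cited2 4.05-fold, while Sertad3 was at 0.451. Since these lists were drawn up with earlier results of the same data known, their shares of higher members, above the 1.64% of all gene names, are no independent evidence.

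Some genes for secreted and vesicle proteins were also counted higher. Inhba, the beta A subunit of activin, read 445 and 390 against 38.8 and 52.2 on the probe measured in both RNAs, 9.26-fold, and at least 56.9-fold and at least 5.89-fold on the other probes, whose controls were not well above background. Fst, which binds and blocks activin, was at least 3.06-fold higher and Skil, a repressor of Smad proteins, 4.2-fold. These were the counted members of 22 activin, TGF-beta and BMP genes above background. Tac1, the precursor of substance P, was at least 2.76-fold higher (59.0 and 38.4 with PACAP38). It and Vgf were the counted members of 12 neuropeptide precursors. Syt4, a synaptotagmin of dense-core vesicles, read 20573 and 18468 against 2402 and 2138, 8.6-fold, and all 3 of its probes were higher; no other of 24 exocytosis genes was counted. Plat (tissue plasminogen activator) rose 2.75-fold and Mmp13 (collagenase) 4.37-fold, of 12 pericellular proteases and inhibitors.

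Among the genes with the largest folds outside these lists were Sprr1a, a cornified-envelope protein also known from injured axons (2711 and 2419 against 87.2 and 137, 23.4-fold) and the cytokine Tslp (14.1-fold). Dio2, which turns thyroxine into its active form, was at least 11.6-fold higher, Gprc5b at least 15.8-fold, the sialidase Neu2 at least 5.86-fold and Arl5b at least 5.72-fold. Members counted higher in other lists, 1 in each, were Bag3 (4.78-fold, of 23 heat shock and cochaperone genes), Srxn1 (4.80-fold, of 18 antioxidant genes), Ccnl1 (3.55-fold, of 33 cell cycle genes), Lamb3 (2.87-fold, of 15 matrix genes), Azin1 (2.54-fold), Kdm6b (2.46-fold), Sox4 (2.45-fold), Slc1a4 (2.29-fold), Idi1 (2.19-fold), Tpm4 (2.16-fold) and Pspn (2.14-fold). For Sox4 and Kdm6b another probe lay below 1, at 0.892 and 0.994.

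**Figure D3:**
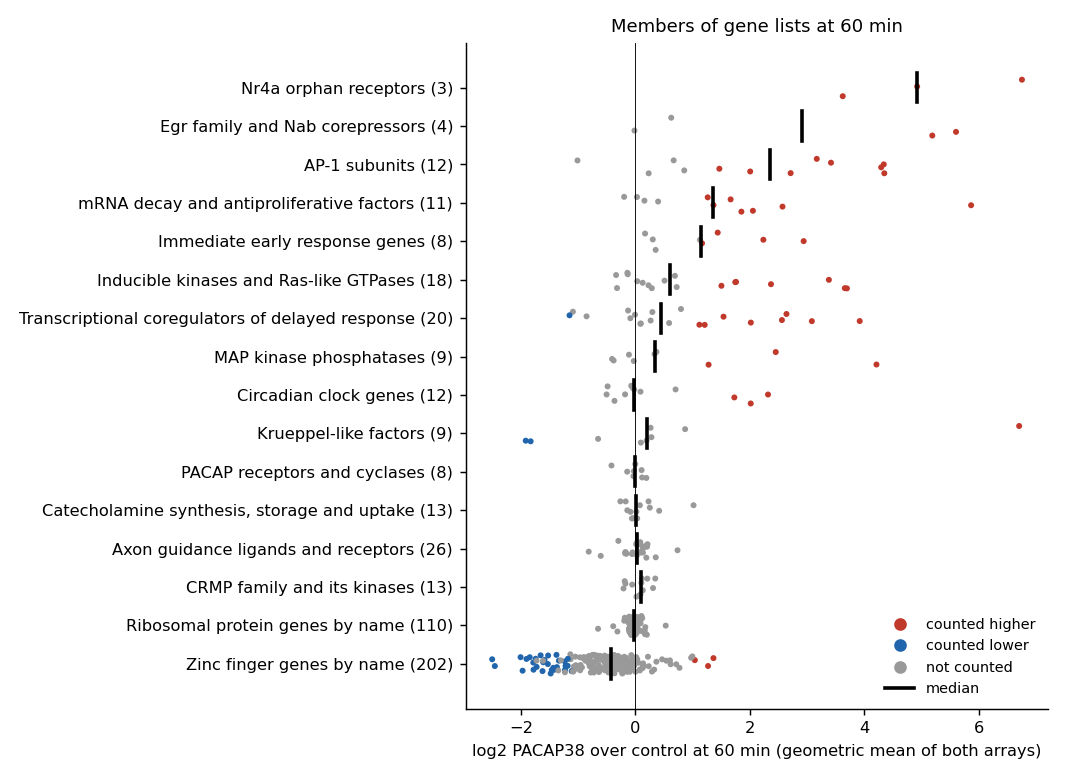
Log2 PACAP38 over control at 60 min of the measured members of 16 gene lists (number in brackets), with black bars at the median. Red points were counted higher and blue points lower: the Nr4a, Egr and AP-1 lists lie to the right, the zinc finger list to the left with a median of -0.42, and the ribosomal protein list at -0.03.

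Homer1 showed different readings on its 2 probes, a case chosen after its values were seen. Homer proteins link metabotropic glutamate receptors to calcium stores, and the short form is the immediate early product. The probe for NM_031707 read 391 and 420 with PACAP38 against 330 and 393, a fold of 1.13 that was not counted. The probe for U92079 read 242 and 211 with PACAP38 against 15.0 and 10.8, at least 10.9-fold. Probes for transcripts annotated as activity and neurotransmitter-induced early genes (ania) lay close together on chromosome 2 of rn4: ania-5 at 23585359 to 23585418, ania-8 at 23588603 to 23588662 and ania-7 at 23621980 to 23622039. All 3 were higher at 60 min, ania-5 at 42.4-fold (552 and 482 against 9.36 and 15.8), ania-8 at 20.3-fold and ania-7 at 26.1-fold. They differed at earlier times. At 10 min ania-8 already stood at 6.76-fold and ania-5 at 6.70-fold or more, whereas ania-7 was first counted at 30 min (8.17-fold) and the U92079 probe of Homer1 at 60 min. With 1 replicate at each time, no difference between time points was tested. Ania-9, on chromosome 4, had a bound of at least 4.48-fold, and ania-10 and ania-12 were above background in neither RNA.

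**Figure D4:**
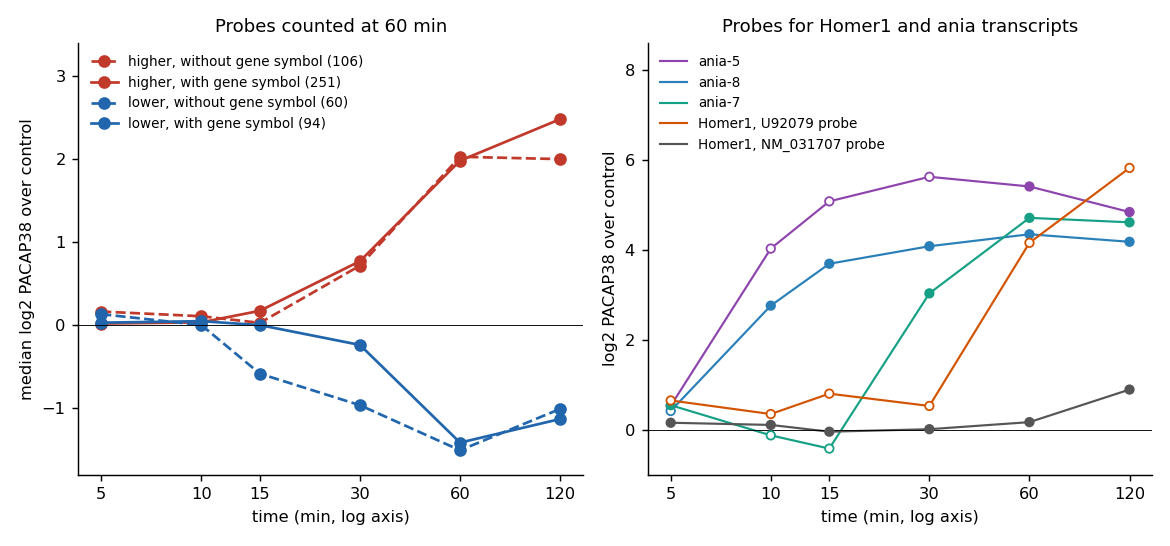
Left, median log2 PACAP38 over control at 6 times (log axis) of the probes counted at 60 min, by direction and by whether the probe has a gene symbol (number in brackets). Right, log2 values of 5 probes for Homer1 and ania transcripts, open points where at least 1 RNA was not well above background on any array; ania-5 and ania-8 lead, ania-7 follows at 30 min and the Homer1 U92079 probe at 60 min, while the NM_031707 probe stays near 0 up to 60 min.

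Probes without a gene symbol made up 106 of the 357 higher (29.7%) and 60 of the 154 lower probes (39.0%), against 28.2% of all measured probes. Of the 93 higher ones with a position on rn4, 28 (30.1%) lay within 50000 bp of a probe of a named gene that was counted higher, against 1.66% of the other measured probes without a symbol. Near partners were Trib1 (98 bp), Mapkapk2 (111 bp), Pkp2 (132 bp), Tslp (155 bp), Zbtb33 (165 bp) and Bag3 (183 bp), the 6 nearest. The probes nearest Trib1 and Pkp2 are described by similarity to Tribbles homolog 1 and plakophilin 2. A near pair can therefore be probes of the same transcript, and how many pairs are of this kind was not tested. FQ220365, which has no position and was chosen after its values were seen, read 20141 and 18242 against 624 and 702 on 1 probe (29.0-fold) and 5638 and 5676 against 636 and 849 on another (7.70-fold). Probes named only by their description included NP071206, urokinase plasminogen activator surface receptor (8.15-fold), and V01253, the luteinizing hormone alpha subunit precursor (4.93-fold). Of the 56 lower ones with a position, 5 lay that near a lower named gene (8.93%, against 1.44% of the others), among them 1 probe 78 bp from Txnip and TC581959, 222 bp from Nfkbia. TC581959 is described as NF-kappa-B inhibitor alpha, the product of Nfkbia.

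The 2 most raised and the 2 most lowered measured probes with a position but no name or description are identified only by their 60-base sequence, which is therefore shown as printed on the array. Positions are those of the array annotation on rn4.
TC630385, chr12:33685682-33685741, plus strand: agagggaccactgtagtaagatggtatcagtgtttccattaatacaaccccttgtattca
A_44_P707354, chr17:62771650-62771709, plus strand: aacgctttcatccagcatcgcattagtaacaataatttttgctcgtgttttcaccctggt
TC603172, chr8:44574201-44574260, plus strand: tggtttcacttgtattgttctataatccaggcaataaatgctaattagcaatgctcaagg
TC600344, chr9:65487460-65487519, plus strand: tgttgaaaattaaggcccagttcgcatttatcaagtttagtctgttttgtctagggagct
TC630385 was 16.4-fold higher (16.5 and 16.3) and lay 24408 bp from the Vps37b probe, and A_44_P707354 was 16-fold higher (18.8 and 13.5). TC603172 read 26.9 and 24.1 with PACAP38 against 202 and 242, at 0.115 of the control, and TC600344 lay at 0.276 (0.354 and 0.215). AB006881, near TC603172 on chromosome 8 at 44571663 to 44571722, was at least 6.29-fold lower.

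Lower genes were led by zinc finger genes, a class taken here by name alone. Many genes of this kind encode DNA-binding repressors with a KRAB domain, but the domains of the listed genes were not looked up. Of the 224 genes whose name marks them as zinc finger genes and that were above background in at least 1 RNA, 29 were lower (12.9%) and 4 higher, against 0.761% of all gene names counted lower. They made up 35.8% of the 81 lower gene names. Zfp3 read 90.1 and 84.9 with PACAP38 against 515 and 476, 0.177 of the control. Zfp472 lay at 0.182 (107 and 73.6 against 491 and 480), Zfp354a at 0.249 (150 and 163 against 608 and 647), Zfp455 at 0.255 and Zfp111 at 0.268 (474 and 514 against 1866 and 1821), and both Zfp111 probes were lower. Zfp78 (0.278) and Zfp867 (0.290) followed. Rbak, a KRAB zinc finger protein that binds the retinoblastoma protein but whose name keeps it outside this list, was at 0.169 (31.5 and 39.8 against 215 and 206), the smallest measured fold of a gene with a symbol, and its other probe was not counted. Zinc finger genes of this class have close paralogues, so a probe may read more than 1 of them.

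The shift was not limited to the genes counted. Of 202 zinc finger genes measured in both RNAs, 158 (78.2%) were below the control on both arrays, against 36.9% of 9856 other gene names. Their median log2 fold was -0.42 against -0.03, and -0.45 on each array alone. With normexp background correction it was -0.17 with loess, against -0.0097 for the others, and -0.17 with median centring, against 0.0039. By these settings only 6 and 2 zinc finger genes were counted lower, of 12 and 3 lower gene names. The zinc finger genes counted higher were Zbtb10, Zfp36l2, Zbtb33 and Zfp131, of which Zfp36l2 encodes an RNA-binding protein. Of the 29 lower genes 10 lay on chromosome 1, where 50 of the 224 lie.

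**Figure D5:**
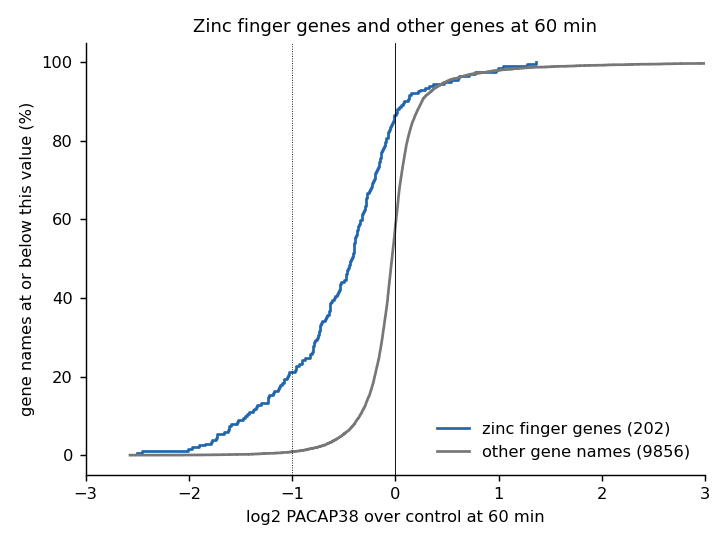
Cumulative share of gene names (y axis, percent) at or below a log2 PACAP38 over control (x axis) at 60 min, for 202 zinc finger genes (blue) and 9856 other gene names (grey) measured in both RNAs. The dotted line marks 2-fold lower; the blue curve lies to the left of the grey one, with a median of -0.42 against -0.03.

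Other genes were lower singly, with no more than 1 lower member in a list other than the zinc finger and Krueppel-like factor lists. Txnip, which binds thioredoxin and limits glucose uptake, read 276 and 258 against 992 and 1408 (0.226). Nfkbia, the inhibitor of NF-kappa-B, read 388 and 377 against 1317 and 1380 (0.284), and was the counted member of 10 NF-kappa-B genes by list. The dim probe TC581959, described as the same gene, was at least 3.32-fold lower. It was already counted lower at 15 and 30 min, where the Nfkbia probe was at 0.963 and 0.896 and not counted. The related Nfkbid, named by the time rule below, moved up instead, at 9.12-fold (22.1 and 3.77), with its control above background on 1 array. Axin2, a scaffold of the beta-catenin destruction complex and itself a Wnt target, was at 0.296 on its brighter probe, and 0 of the other 14 Wnt genes were counted. Id1, an inhibitor of basic helix-loop-helix factors, read 2194 and 2251 against 5591 and 5715 (0.393 with 0.392 and 0.394 on the arrays). Bbc3, the proapoptotic Puma, was at 0.381, the homeobox gene Six4 at 0.423 and Prdm2 at 0.486. Fbxo5 (0.226), Lrr1 (0.251) and 2610008E11Rikl (0.273) were also among the 15 smallest folds; Fbxo5 was at 0.442 and 0.116 on the arrays, with PACAP38 above background on 1 of them.

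COX1, encoded by the mitochondrial genome and chosen after its values were seen, was lower on the only probe that carries its name. It read 37259 and 29732 with PACAP38 against 81262 and 92154, 0.385 of the control (0.459 and 0.323). The array holds 18 probes of 7 named mitochondrial genes, and the rest lay between 0.928 and 1.07. An unnamed probe 303 bp away on the other strand, FQ229665, was lower too (0.483), and CD052189, on the COX1 strand at 6573 of the mitochondrial genome, was at least 2.83-fold higher. COX1 was also lower at 30 min (0.386) but not counted at 120 min (0.566).

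The median annotated span (RefSeq, GRCr8) was 12560 bp for 174 higher and 10325 bp for 79 lower gene names, against 22316 bp for 10605 names above background. Spans under 5000 bp were held by 24.1% of the higher, 27.8% of the lower and 13.4% of all names. Among the lower genes the share was 38.0% of 50 outside the zinc finger class and 10.3% of the 29 within it. No test was made of these shares.

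Several lists tied to the differentiated state of PC12 cells, though not those with Syt4, Tac1, Vgf and Sox4 above, held no counted gene at 60 min. At the shares over all gene names (1.64% higher and 0.761% lower) lists of this size would hold few or none, so nothing is read from these counts. Of 30 genes for axon guidance ligands and receptors and 14 for CRMP proteins and their kinases, 0 were counted, with medians of 0.03 and 0.09 on the log2 scale. Dpysl2 (CRMP2, a tubulin-binding protein of growing axons) was at 1.08 (1.26 and 0.932), Rock1 at 1.01, Nrp1 at 1.16 and Unc5c at 1.09. No gene was counted among 23 microtubule, kinesin and neurofilament genes (Prph 0.950, Stmn3 1.07), 26 ion channel genes (Scn3b 0.998, Cacna2d1 1.14), 13 catecholamine genes (Th 1.17, Ddc 0.973) or 9 granins and processing enzymes (Scg3 1.17, Chgb 1.14). Scg2, the precursor of secretoneurin, was at 1.39 (1.36 and 1.42). The Socs and gp130 genes (Socs2 1.18, Pias1 0.842) and the growth factors (Egfr 1.32, Gdf15 1.11) also had 0 counted members of 12 and 10, and the 111 ribosomal protein genes 0, with Rps3a at 0.975 and Rps23 at 0.974. With 1 replicate a change short of 2-fold cannot be told from the spread between cultures, which was not measured.

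Set beside the other times, 255 of the 357 higher and 131 of the 154 lower probes were first counted at 60 min, and 87 higher probes were counted at 30, 60 and 120 min. At 10 min 27 and at 15 min 37 probes were higher, of which 26 and 36 were still higher at 60 min. Of the 357 higher probes 100 were also higher at 30 min, which is 98.0% of the 102 counted there (0.249% of its probes; 0.102% were lower), and 301 (84.3%) were also higher at 120 min, which is 37.7% of the 799 counted there (1.95%). For lower probes the overlap with 120 min was 62 of 154, 9.90% of the 626 lower ones there (1.53%). The probes were chosen on their 60 min values, which favours 60 min in any such comparison. The fold was larger at 120 than at 60 min on both arrays for 217 higher probes and smaller on both for 94. For lower probes the change was larger at 120 min for 36 and smaller for 102. Of the 29 lower zinc finger genes 22 lay nearer to the control at 120 min on both arrays and 4 further from it, 10 were still counted there, and 0 had been counted at 30 min. These 29 were chosen for their low values at 60 min, and over the whole zinc finger list the median log2 fold was -0.07 at 30 min, -0.42 at 60 min and -0.48 at 120 min. None of these differences between time points was tested.

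Some genes were past the limits at 60 min and at no other time, 42 of the 357 higher and 75 of the 154 lower probes. Of these, 20 higher and 47 lower probes have a gene symbol, and the 5 genes with the largest changes in each direction are named. Beside Nfkbid they were Egr2, Or1j15 (at least 2.12-fold), Plekhf1 (3.23-fold) and Rhox9 (2.41-fold) among the higher genes. Among the lower ones they were Rbak, Zfp472, Fbxo5, Zfp354a and C11h3orf70, which was at least 2.40-fold lower. Folds at other times, chosen after they were seen, show both orders. At 30 and 120 min the folds of Egr1 were 60.7 and 9.72, those of Arc 6.03 and 2.15, and those of Jun 9.38 and 1.53. The folds of Tslp at the same times were 3.34 and 28.8, those of Errfi1 1.72 and 16.4, and those of Dusp2 1.44 and 11.2.

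At 15 and 30 min the lower probes without a symbol had a lower median than those with one. At 5 and 10 min their median log2 folds were 0.13 and 0.0016, against 0.031 and 0.048 for the probes with a symbol, and at 10 min 20 of the 60 were below the control on both arrays, against 12 of the 94. At 15 min 47 of the 60 were below the control on both arrays, with a median log2 fold of -0.58, against 27 of 94 and a median of 0.0014 for the probes with a symbol. At 30 min the medians were -0.96 and -0.24. The probes without a symbol were dimmer, with a median processed intensity of 64.0 at 60 min against 175 for those with one, and the part of brightness in this difference was not tested. At 30 min normexp with loess gave -0.18 and -0.081.

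The size of a fold depended on the background correction. With normexp and an offset of 50, which adds a constant to every signal and so shrinks folds of dim probes most, all 309 higher and 139 lower measured probes kept their direction, but the median fold fell to 2.02 for the higher ones and moved to 0.696 for the lower ones with loess. By that scaling 153 probes were counted higher and 13 lower, all among those above, so that 92.2% of the changed probes were higher. With median centring the counts were 109 and 4, and 96.5% were higher.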

How the data were processed

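RNA of PC12 cells was measured on 2-colour Agilent whole rat genome arrays (4x44K). The values were made by the authors with Agilent Feature Extraction, given as version 12.0.3.1 in the file headers and 11.0.1.1 in the submitters' processing notes. The deposited processed intensities had their background and spatial trend subtracted and their dyes set level by LOWESS, dim spots holding surrogates, and the deposited mean and background intensities are not normalized. The deposited spot p-value belongs to the log ratio of 1 spot. The deposited log10 ratios are Cy5 over Cy3, not turned by dye, and the flags are those of the authors' software.

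Ratios of PACAP38 to control were turned by dye. Control spots and the 251 and 236 outlier-flagged spots of the Cy5 and Cy3 arrays were left out, and spots of 1 probe were averaged. Between 44.7 and 49.6% of the spots were well above background per RNA and array, and none was saturated; the number of arrays limits the precision. A bound divides the bright RNA's mean by the dim RNA's, the latter raised to the array's faintest well-above-background signal where it was lower. These means were taken by channel with limma 3.58.1 (R 4.3.3), normalized by loess and then Aquantile. Names came from the files, updated through RefSeq for 1962 probes, and 25133 of 41012 probes have a gene symbol. Named were the counted genes at the ends of the measured folds (15 highest, 15 lowest), the 6 with the largest bound, up to 5 counted members of each gene list (where none was counted, up to 2 by brightness), 5 per direction past the limits at no other time, and markers of the line; genes named beyond this rule are members given in full for a list, are named by a promoter site or by distance, or are said to be chosen after their values were seen. Members and lists were chosen with earlier results of these data known, and no set test was made. Alternatives were no p limit, other fold limits, filters on dim probes, normexp (offset 50) with loess or median centring, the deposited value table, outlier spots kept, gene names in place of probes, other probes, and 1 array alone. The remaining work used numpy 2.4.6, pandas 2.3.3, matplotlib 3.10.9 and scipy 1.17.1 under Python 3.11.15. A few genes within the naming rule are not reported here. The proteome was not analysed here.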

Additional observations from a re-analysis of the deposited data

Results flagged for a closer look

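Zfp455, a zinc finger gene, moved in opposite directions at 2 time points, past the limits on both arrays each time. At 60 min it was at 0.255 of the control (0.318 and 0.205 on the Cy5 and Cy3 arrays), and at 120 min it was 3.82-fold higher (3.58 and 4.07). It was the only probe counted at 60 min that was counted the other way at 5, 10, 15, 30 or 120 min. With 1 replicate at each time this difference was not tested. The gene has 1 probe and close paralogues.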

How the results depend on the processing

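The main rule gave 357 higher and 154 lower probes, 69.9% of them higher. The 95% Wilson interval of 65.7 to 73.7% covers counting error only and takes probes as independent, though some genes have several. Against these counts, the geometric mean fold with no p limit gave 771, 503 and 60.5%. A 1.5-fold limit gave 578, 454 and 56.0%, and a 3-fold limit 207, 35 and 85.5%. Normexp with loess gave 153, 13 and 92.2%, and with median centring 109, 4 and 96.5%. Leaving out each array in turn gave 888 to 973 higher and 587 to 802 lower probes (54.8 to 60.2% higher). Dropping the p limit on both arrays, filters on dim probes, the deposited value table, keeping outlier spots and counting gene names kept each count within 1.5 times. The overlap of higher probes with 30 min was 47 and 41, and with 120 min 130 and 92, with normexp and loess or median centring, and that of lower probes with 120 min 4 and 2; the other 2 rules kept the overlaps within 1.5 times. Zinc finger genes counted lower, an alternative set added after seeing the data, numbered 6 with normexp and loess, 2 with median centring, 62 at 1.5-fold and 37 to 55 with 1 array. The cause of these shifts was not tested, beyond the offset, which shrinks dim folds by construction. Of 119 measured folds of named genes 73 moved by more than the spread between arrays and 0 reversed with each normexp setting (with loess Nr4a3 was at 18.2, Klf4 at 52.5 and Zfp3 at 0.424), and 28 of 45 moved on other probes of the gene; 1 other probe each of Sox4 (0.892) and Kdm6b (0.994) fell on the other side of the control. No paired analysis was possible because each time point has 1 replicate. Signal over background limits all folds with a dim control.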
